A study of Mus musculus with 2 samples.

Results

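The colony-stimulating factors and their receptors were taken as 7 genes, the ligand genes Csf1, Csf2 and Csf3 and the receptor genes Csf1r, Csf3r, Csf2ra and Csf2rb. Each was found by its symbol in the gene table of all cells, so the set is 7 of 28523 listed genes. The data are single-cell RNA libraries of liver metastases in female BALB/c mice of 6 to 8 weeks, dissected on day 14 after 250000 4T1 cells were injected into the spleen, which was then removed. 4T1 is a mouse triple-negative breast cancer line. The injected cells carried a lentiviral, puromycin-selected hairpin, either a scrambled control (shSCR) or one against Zdhhc17 (shZdhhc17), a palmitoyltransferase gene. The host mice carried no engineered allele in the labels, so the hairpin was in the injected cells and not in the neutrophils, macrophages or other host cells. Equal numbers of cells from 3 dissociations were pooled per group before capture, so each group is 1 library and no value below has a spread between mice.

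Colony-stimulating factors (CSFs) are secreted proteins that keep myeloid cells alive and drive their formation and activation. CSF1 (M-CSF) acts through the receptor tyrosine kinase CSF1R on monocytes and macrophages, CSF3 (G-CSF) through CSF3R on neutrophils and their precursors, and CSF2 (GM-CSF) through a receptor made of a specific alpha chain, CSF2RA, and a signalling beta chain, CSF2RB. The beta chain is shared with the receptors of interleukin 3 and interleukin 5. The 4T1 line is widely known for G-CSF release and for the neutrophil expansion that follows in its hosts.

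The values used here are flags per gene, the authors' marker table of neutrophil clusters, and the annotation, library and total UMIs (molecule counts) of each cell. Counts of single genes per cell were not analysed here. The level of Csf1, Csf2 or Csf3 in cancer cells, or of any receptor gene in a cell type or library, is therefore not given, and Zdhhc17 itself was not checked. The libraries held 22860 shSCR cells with 214842365 UMIs and 21511 shZdhhc17 cells with 172527305 UMIs. Among the cell numbers of the capture system, 609 occurred in both libraries, 2.66% of those in shSCR and 2.83% of those in shZdhhc17. The authors' cell type labels were taken as given and not checked against expression.

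Because reads are assigned to genes by sequence, the closest relative of a receptor gene was compared first. Csf2rb and its neighbour Csf2rb2, which encodes a beta chain that in mice serves interleukin 3, lie 20030 bases apart on GRCm38 chromosome 15. Their coding sequences, 2688 and 2634 bases long, aligned over 2628 bases with 95.2% identity, and their longest identical run was 242 bases. Exon 4, coding throughout, is shown because, among the ungapped exons of 100 to 200 bases, it held the most differences per base, 22 in 188. Both sequences run 5′ to 3′ on the strand of their gene, Csf2rb at chr15:78338802-78338989 on the plus strand and Csf2rb2 at chr15:78294342-78294529 on the minus strand, and capitals mark the differing bases.
Csf2rb: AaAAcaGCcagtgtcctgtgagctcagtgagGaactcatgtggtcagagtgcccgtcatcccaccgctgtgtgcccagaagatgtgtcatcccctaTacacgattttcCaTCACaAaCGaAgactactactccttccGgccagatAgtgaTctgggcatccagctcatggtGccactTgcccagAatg
Csf2rb2: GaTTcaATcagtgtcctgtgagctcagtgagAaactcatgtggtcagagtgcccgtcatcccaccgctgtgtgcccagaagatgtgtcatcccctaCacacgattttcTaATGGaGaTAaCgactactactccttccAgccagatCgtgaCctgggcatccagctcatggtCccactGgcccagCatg
Many of the capitals lie close together and others stand alone. The longest stretch without a capital exceeds 50 bases, so a read of that length within it would match both genes. Of the 4851 windows of 50 bases in the longest coding transcript of Csf2rb, 892 also occurred in a transcript of Csf2rb2. None of the 451 windows in the last 500 bases did, so reads from the 3′ end tell these genes apart. The treatment of reads that match both is not given in the sources used here.

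Among the ligand genes, Csf1, the macrophage growth factor gene (ENSMUSG00000014599.10, GRCm38 chromosome 3, 107741048 to 107760469, minus strand), was among the 1000 most variable genes of all cells and also among the 1000 most variable genes of neutrophils. It was the only member with both flags. In all, 383 genes of the series had both. Csf2 (ENSMUSG00000018916.5, chromosome 11, 54247271 to 54249667, minus strand) and Csf3 (ENSMUSG00000038067.2, chromosome 11, 98701263 to 98703629, plus strand) were listed in both gene tables and had neither flag. Csf2 lies 15635 bases from Il3, another ligand gene of a receptor with the shared beta chain. A gene model antisense to Csf2, Gm12223, overlaps it over 2068 bases and was listed in the table of all cells but not in that of neutrophils. Whether the counting used strand is likewise not stated. The flags name no cell type or library, so neither cancer cells nor host cells can be named as the source of any of the 3 ligands.

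Among the receptor genes, Csf3r, which encodes the G-CSF receptor (ENSMUSG00000028859.14, chromosome 4, 126024550 to 126044440, plus strand), was among the most variable genes of all cells and not among those of neutrophils. Csf1r (ENSMUSG00000024621.16, chromosome 18, 61100598 to 61132149, plus strand), Csf2ra (ENSMUSG00000059326.7, chromosome 19, 61223957 to 61228429, minus strand) and Csf2rb (ENSMUSG00000071713.6, chromosome 15, 78325752 to 78353847, plus strand) were listed in both tables without a flag. The last 873 bases of the Csf1r locus overlap the protein-coding gene Hmgxb3 on the opposite strand. In sum, 2 of the 7 members were among the most variable genes of all cells, against 3.51% of all listed genes, and 1 of 7 among those of neutrophils, against 4.64%. All 7 were listed in the neutrophil table, as were 75.5% of the genes of the full table. With 7 genes these counts are a description. A gene outside the 1000 most variable genes can still differ between cell types.

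Csf3r was the only member among the markers of the 9 neutrophil clusters, of which the authors listed the top 20 each. In the authors' deposited table it stood in the cluster named Inflammation, with a log2 fold change of 1.05 against all other neutrophils. It was above 0 in 89.4% of the Inflammation cells and in 84.9% of all other neutrophils, per the authors' deposited table. The receptor gene was thus detected in most neutrophils on both sides of this comparison, with a gap of 4.43 percentage points. The Inflammation cells had fewer UMIs, at a median of 1026.5 against 3268 in all other neutrophils. The gap is not adjusted for this, and the part of depth in it was not tested. In the plot of marker detection it lies close to the line of equal detection, unlike Il1b, the first marker of this cluster. Free RNA can put UMIs of an abundant gene into other cells, and although the authors corrected for it, detection of Csf3r in a cell type that should lack it was not analysed here. The share of all genes in the neutrophil table that were listed as a marker was 0.835%, or 0.645% with a log2 fold change of 1 or more, and 1 of 7 members is a count too small to read against either. A gene that is not among 20 markers can still differ between clusters.

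**Figure D1:**
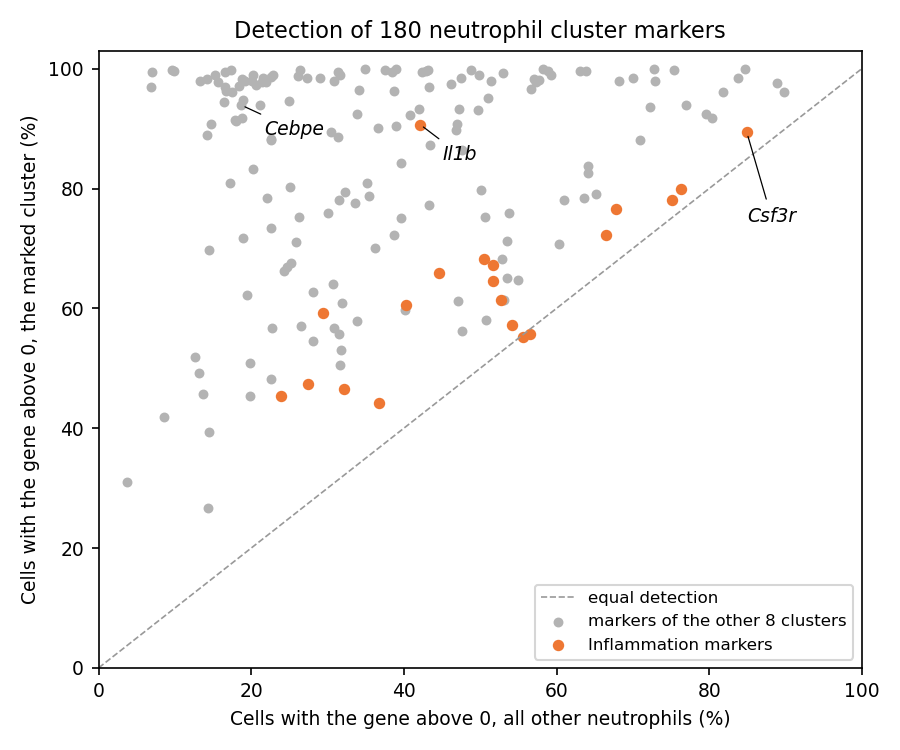
Share of cells with the gene above 0 in the marked cluster (y axis, %) against all other neutrophils (x axis, %) for the 180 markers in the authors' deposited table. Orange points are the 20 Inflammation markers, grey points those of the other clusters, and the dashed line is equal detection. Csf3r sits near the upper right corner, at 89.4% and 84.9%, close to the line, and Cebpe far from it at 93.9% and 18.7%.

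Multiplied by the cells per cluster, these fractions give 2170 of 2428 Inflammation cells and 7215 of 8494 other neutrophils with Csf3r above 0. Together this is 9385 of 10922 neutrophils, or 85.9%. Inflammation cells made up 23.1% of the neutrophils with Csf3r and 22.2% of all neutrophils. These shares differ by little, that of the cells with Csf3r being the higher. With Csf3r above 0 in 85.9% of all neutrophils, the first share could not lie far above the second. Neither share describes the level of Csf3r per cell. The authors' fractions pool the libraries, and only a lower limit per library follows from them. Even if all 258 Inflammation cells without Csf3r came from a single library, at least 78.4% of the 1192 shSCR and at least 79.1% of the 1236 shZdhhc17 Inflammation cells had it. Over all neutrophils, with 1537 cells lacking it, at least 76.7% of the 6594 in shSCR and at least 64.5% of the 4328 in shZdhhc17 had it. Csf3r was thus detected in a majority of neutrophils of both libraries, and whether its share or level differed between them was not resolved by these limits.

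Within the marker table Csf3r was among the most broadly detected genes. Its detection outside its own cluster was the third highest of the 180 markers in the authors' deposited table, after Lcp1 (89.9%), an actin-bundling protein gene listed for Migration 1, and Fth1 (88.9%), a ferritin subunit gene listed for Hypoxia/Angiogenesis. S100a8 (84.6%), a subunit gene of calprotectin, and Cxcr2 (83.8%), the neutrophil chemokine receptor gene, followed. Its log2 fold change was the lowest of the 20 Inflammation markers. Of those 20 genes, 4 were outside the most variable genes of neutrophils, Csf3r among them. Over all clusters, 106 of the 180 markers were outside, so this is common among all markers but less so among those of Inflammation.

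The depth of the cells moved with this marker call. Inflammation was the shallowest cluster, with a median of 1026.5 UMIs per cell against 3268 in all other neutrophils. By library its median was 1175 UMIs in shSCR and 906 in shZdhhc17. The authors' fold changes rest on counts scaled to 10000 UMIs per cell. On this scale 1 UMI counts as 9.74 in a cell of the Inflammation median. It counts as 0.539 at the median of Early-Stage 1, the deepest cluster, with 18559 UMIs. The other clusters lie between, such as Hypoxia/Angiogenesis at 8.63 and Migration 1 at 4.60, and the fold change is against all of them together. In the authors' deposited table the 6 markers with the smallest gap in detection were all Inflammation markers. They included Nfkbia (-0.73 points), Tnfaip2 (-0.44), Zfp36 (2.91) and Fos (3.09), and Csf3r (4.43) was the sixth. The part of depth in the Csf3r fold change was not tested.

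**Figure D2:**
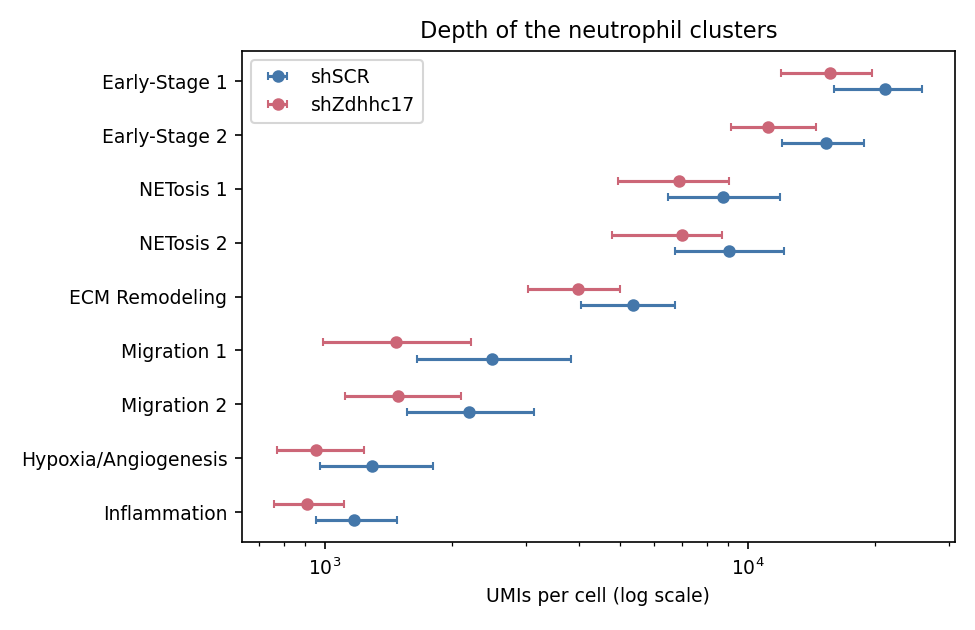
UMIs per cell (x axis, log scale) in the 9 neutrophil clusters, by library. Points are medians and bars run from the lower to the upper quartile of cells. Inflammation, the cluster marked by Csf3r, has the lowest medians, 1175 in shSCR and 906 in shZdhhc17, and in each cluster the shZdhhc17 median is the lower.

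Inflammation cells were 18.1% of shSCR neutrophils (exact 95% binomial interval 17.2 to 19.0) and 28.6% of shZdhhc17 neutrophils (27.2 to 29.9), while neutrophils as a whole were fewer in shZdhhc17. In captured cells this is 1192 against 1236, so the counts of the cluster marked by Csf3r were close while its shares of neutrophils were not. The depth of its cells differed between the libraries as given above, and its part in the assignment of cells to this cluster was not tested.

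The other genes of CSF signalling were described from a list of 46, which held related ligands and receptors, the kinases and STAT factors downstream, their feedback inhibitors and the transcription factors of myeloid development. Of these, 45 were listed for all cells and 42 for neutrophils. Among the most variable genes of all cells were 3 of 45, namely Kit, the stem cell factor receptor gene, Egr1, an immediate-early transcription factor gene, and Pim1, a kinase gene induced by STAT5. Among the most variable genes of neutrophils were 7 of 42. They included Socs3, a feedback inhibitor gene of the G-CSF receptor, the survival gene Bcl2l1, the transcription factor genes Egr1, Egr2 and Runx1, and Kit. That is a larger count than for all cells on a list of nearly the same length, though the flags are relative to different sets of cells. The backgrounds are again 3.51% and 4.64% of all listed genes.

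A single gene of this list was a cluster marker. Cebpe, a transcription factor gene needed for late granulocyte maturation, was listed for the Early-Stage 2 neutrophils, with a log2 fold change of 1.31 in the authors' deposited table. It was above 0 in 93.9% of Early-Stage 2 cells and in 18.7% of all other neutrophils, per the authors' deposited table. Cebpe thus differed from Csf3r in the shape of its pattern, being detected in a far smaller share of cells outside its cluster than inside. Early-Stage 2 held 659 of the 10922 neutrophils, so the cells with Cebpe outside it were not few in number. Early-Stage 2 was also among the deepest clusters, with a median of 13658 UMIs per cell against 1825 in all other neutrophils, and the part of depth in this gap was not tested.

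The cells that could answer each factor were counted by the receptor that textbook knowledge gives them, an assignment that was not measured here. Neutrophils stood for Csf3r, and monocytes, both macrophage classes and conventional and plasmacytoid dendritic cells for Csf1r. All of these with basophils stood for Csf2ra and Csf2rb. Of these 3 compartments that of Csf3r had the lowest ratio between the libraries. It held 28.8% of shSCR cells (28.3 to 29.4) and 20.1% of shZdhhc17 cells (19.6 to 20.7). The ratio of shZdhhc17 over shSCR was 0.698, with a 95% counting interval of 0.675 to 0.721. The Csf1r compartment held 27.3% of shSCR cells (26.7 to 27.9) and 25.9% of shZdhhc17 cells (25.3 to 26.5), which gives a ratio of 0.949 (0.920 to 0.979). The Csf2ra and Csf2rb compartment, which contains both, held 56.4% (55.7 to 57.0) and 46.3% (45.6 to 47.0), with a ratio of 0.821 (0.806 to 0.837). With 1 library per group no test between groups was possible, and the intervals cover counting error only.

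Cancer cells, at 27.2% in shSCR and 36.9% in shZdhhc17, enter the denominator of these shares. Among cells other than cancer cells the ratio of the Csf1r compartment was 1.09 (1.06 to 1.13), the opposite direction, while that of the Csf3r compartment was 0.805 (0.780 to 0.830). For every 100 cancer cells there were 54.6 cells of the Csf3r compartment in shZdhhc17 and 106.2 in shSCR, a ratio of 0.514 (0.488 to 0.541). The same measure for the Csf1r compartment was 70.3 against 100.6, a ratio of 0.699 (0.666 to 0.734). Within that compartment the classes differed. Monocytes were at 20.3 against 35.8 per 100 cancer cells, a ratio of 0.566 (0.526 to 0.608), and Kupffer cells at 9.46 against 8.70, a ratio of 1.09 (0.969 to 1.22). Cells annotated as MDSCs (myeloid-derived suppressor cells) were left out of these compartments, and counted with the neutrophils they gave 22.2% against 31.9%.

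**Figure D3:**
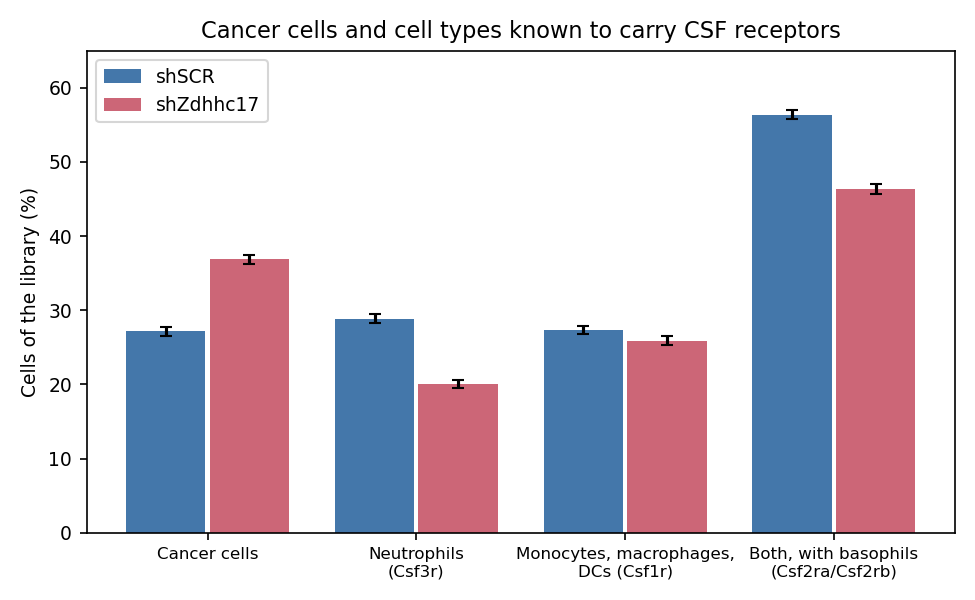
Share of all cells of a library (y axis, %) for cancer cells and for the cell types known to carry each CSF receptor. Bars are the shares in 1 library per group and error bars exact 95% binomial intervals, which cover counting error only. The Csf3r bars are at 28.8% and 20.1%, the Csf1r bars at 27.3% and 25.9%.

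The RNA sampled from each compartment sets how well its receptor genes could be read. Neutrophils gave 37793744 UMIs in shSCR, 17.6% of the library, and 17128595 in shZdhhc17, 9.93%. The Csf1r compartment gave 24.3% and 22.3% of UMIs, and cancer cells, a possible source of the ligands, 37.6% and 49.1%. Of these compartments neutrophils thus had the lowest ratio of UMI shares between the libraries. They had fewer cells and fewer UMIs per cell, with medians of 1418 in shZdhhc17 and 2464 in shSCR. This was not particular to neutrophils, as every cell type compared had a lower median in shZdhhc17. The Csf1r compartment also had fewer cells there and a median of 6220 against 7272.5, and cancer cells one of 10531 against 13075. In these pooled libraries fewer UMIs per cell from less RNA and from poorer capture cannot be told apart.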

How the data were processed

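Per the labels' protocols, metastases of 3 dissociations per group were pooled and captured on BD Rhapsody with a target of 15000 cells. Per the file headers, the authors corrected counts for ambient RNA, named cell types from markers and used symbols of GRCm38 (mm10). The submitters' processing notes name Seurat 4.1.0. In the deposited cell tables, UMIs and genes are counts per cell after that correction. The deposited percent of mitochondrial UMIs was not used. No cell had fewer than 500 UMIs. The deposited marker table gives log2 fold changes (a cluster against the remaining neutrophils), the fraction of cells with the gene above 0 (in percent here), and 2 scores of the authors, not used here. The gene tables the authors deposited hold a flag per gene.

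Python 3.11.15, SciPy 1.17.1 and Biopython 1.88 were used. Positions and transcripts come from the GENCODE M21 annotation of the same build. Coding sequences were aligned globally. Shares have exact (Clopper-Pearson) 95% intervals and ratios log-normal 95% intervals. Those of shares and of ratios of shares were checked on simulated data. The intervals of ratios per cancer cell use another error formula and were not simulated. Whether exact intervals overlapped is given as a description of counting error in these libraries, not as a test between groups. Doublet and unknown labels stayed in the denominators, and no doublet caller was run. Named genes were the 7 members and every gene of the 46-gene list that was a marker. Further genes of that list with a variability flag, and genes set beside Csf3r, were named after their values were seen. Genes that neighbour, overlap or share sequence with a member were named as well. The members and lists were chosen with earlier results of these data known. Planned levels and detection of members per cell type, cluster and library were not computed, since per-cell counts of genes were not analysed here. Alternatives were other denominators, removal of doublets, a minimum of 1000 UMIs, MDSCs counted with neutrophils, and a minimum log2 fold change of 1.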

Additional observations from a re-analysis of the deposited data

How the results depend on the processing

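The ratio of the Csf1r compartment (0.949) was 1.09 among cells other than cancer cells, so its direction depends on the denominator. The cancer cells left out there were 27.2% of shSCR and 36.9% of shZdhhc17 cells, and why these shares differ was not tested. With at least 1000 UMIs per cell the Csf1r ratio was 0.997, with an interval of 0.967 to 1.03 that spans 1. The Csf3r ratio (0.698) was 0.805 among cells other than cancer cells and 0.582 with at least 1000 UMIs. The Csf2ra and Csf2rb ratio (0.821) was 0.948 and 0.798 in the same order, so all were below 1. The cut at 1000 UMIs lies above the shZdhhc17 medians of Inflammation (906) and Hypoxia/Angiogenesis (954). It lies below their shSCR medians (1175 and 1295), so it removes a larger part of these cells in shZdhhc17. The part of depth in these ratios was not tested. Removal of doublet and unknown labels, and MDSCs counted with neutrophils, kept each ratio run within its interval. Of 14 cell types, 6 had exact intervals that did not overlap between the libraries, and 6 or 7 under the alternatives. Cancer cells were not among the types compared where they were left out of the denominator. These counts describe counting error only. Both listed markers, Csf3r and Cebpe, passed a log2 fold change of 1. No paired analysis was possible because each group is 1 library. With shallow neutrophils, at a median of 1418 UMIs in shZdhhc17, low receptor transcripts are read with little precision.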

Other observations

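Over the 9 neutrophil clusters, the median gap in detection between a cluster and all other neutrophils, taken over its 20 markers in the authors' deposited table, ran from 10.8 percentage points in Inflammation to 80.8 in Early-Stage 1. These are also the clusters with the lowest and the highest median UMIs per cell, 1026.5 and 18559. Hypoxia/Angiogenesis, with 1159 UMIs nearly as shallow as Inflammation, had a median gap of 33.6 points, and Migration 1, with 2176 UMIs, had 13.4. Inflammation was the only cluster with markers that were detected in a smaller share of its own cells than elsewhere, 2 of 20. The markers share cells and depth, so this order is a description.

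The longest coding transcripts of Csf3r and Csf2rb shared windows of 50 bases with other genes. For Csf2rb these were 894 windows and 9 genes, with 892 of the windows in Csf2rb2. Of the 3432 windows of Csf3r, 385 occurred in transcripts of 190 other genes, 325 of them in AC105061.2, a processed pseudogene on chromosome 19. In the last 500 bases of Csf3r, 60 of 451 windows were shared. Csf1, Csf2, Csf3, Csf1r and Csf2ra shared none.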
